A study of Mus musculus with 4 samples.

Results

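The 10 genes described here code for proteins that coat lipid droplets, fuse them, break down their triglyceride or help to make it. They were *Plin2*, *Plin3*, *Plin4*, *Plin5*, *Cidea*, *Cideb*, *Cidec*, *G0s2*, *Pnpla2* and *Mogat1*, out of 18193 genes that the array annotation assigns to a probe set of their own. They were taken by name with no threshold on their values, but the list was drawn up with earlier results of these data known. Shares of all genes given below are thus a background and not a test. Each listed gene was read at every probe set that names its symbol alone, which gave 12 probe sets of 34945, with a second probe set for *Plin5* and for *Pnpla2*. The gene expression profile of non-tumorous liver was measured in male C57BL/6-background mice at 30 weeks of age, on 1 Affymetrix whole-genome expression array per mouse. The 2 G9aΔHep mice (Alb-Cre; G9a flox/flox, labelled G9aKO) lacked the histone H3K9 methyltransferase G9a in hepatocytes, and the 2 WT mice (Alb-Cre; G9a+/+) kept it. Both groups carried the Cre transgene, and both had been given diethylnitrosamine (DEN) at 25 mg/kg on day 15 of life and then 22 injections of carbon tetrachloride (CCl4) at 0.5 ml/kg, a course that injures the liver over and over while tumours form. The albumin promoter drove Cre, so that the deletion was aimed at hepatocytes, and G9a in the other cells of the liver was not measured here.

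*Ehmt2*, the gene that codes for G9a, had a signal of 174 and 164 in the G9aΔHep mice, called Absent on both arrays, against 640 and 492 in the WT mice, called Present on both. Since the G9aΔHep values give only a bound, the signal was at least 3.33-fold higher in WT, with an adjusted p of 0.0630 in limma. A dimmer *Ehmt2* probe set was undetected in every mouse, and it is not known here whether the probes fall inside the floxed exons. Probe sets called Present made up 43.9% and 42.8% of each G9aΔHep array and 41.9% and 41.3% of each WT array. All 13 hepatocyte markers measured were detected, among them *Alb*, at 65622 and 57072 in the G9aΔHep mice and 69483 and 63618 in the WT mice, and the median difference of the list was -0.031 on the log2 scale. Of the 13, 0 were called after adjustment, and at an unadjusted p under 0.05 in limma 0 were higher and 1 lower, against 5.92% and 4.10% of all genes. The lower one was *Cps1*, at 51412 and 48136 in the G9aΔHep mice against 59553 and 56780 in the WT mice. In bulk liver, fewer cells of a type and less RNA per cell cannot be told apart.

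A lipid droplet is a core of triglyceride and cholesterol ester under a single layer of phospholipid, on which the coat and the enzymes sit. Perilipins (the Plin family) cover the surface and decide which lipases reach the core, CIDE proteins pass lipid between droplets so that they grow, and adipose triglyceride lipase (Pnpla2) makes the first cut in triglyceride, a step that G0s2 blocks. In hepatocytes droplets fill and empty with feeding and fasting, and several coat genes are targets of the PPAR family of nuclear receptors.

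Of the 10 genes, 8 were Present on all 4 arrays and were tested, and none passed an adjusted p of 0.05 in limma in either direction. Over all 10350 genes tested, 0.319% were called higher and 0.0676% lower in G9aΔHep liver. At an unadjusted p under 0.05, 2 of the 8 were higher (*Plin5* and *G0s2*) against 5.92% of all genes, and 1 was lower (*Plin4*) against 4.10% of all genes. Both G9aΔHep values lay above both WT values for *Plin5* and *G0s2*, against 22.3% of all genes, and below both for *Plin4* and *Cideb*, against 19.3% of all genes. The median difference of the 8 genes was 0.20 on the log2 scale (G9aΔHep minus WT), beside 0.023 for all genes tested. It was -0.12 without WT mouse 1 and 0.088 without G9aΔHep mouse 2, so that its sign rested on WT mouse 1. On the same values, the methods' t-test called 0 of the 8 genes after Benjamini-Hochberg adjustment and 0 at an unadjusted p under 0.05, and limma without a mean-variance trend called 0 and left 1 at an unadjusted p under 0.05. With 2 arrays per genotype an exact permutation test cannot go below a two-sided p of 0.33, so the number of arrays limits the precision throughout. The limma p-values combine the spread between the 2 mice of each genotype with that of other genes of like signal. The fit had 4.02 prior and 2 residual degrees of freedom. Signals are compared between mice at 1 probe set, apart from sums over marker lists, which follow the brightest probe sets of each list.

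**Figure D1:**
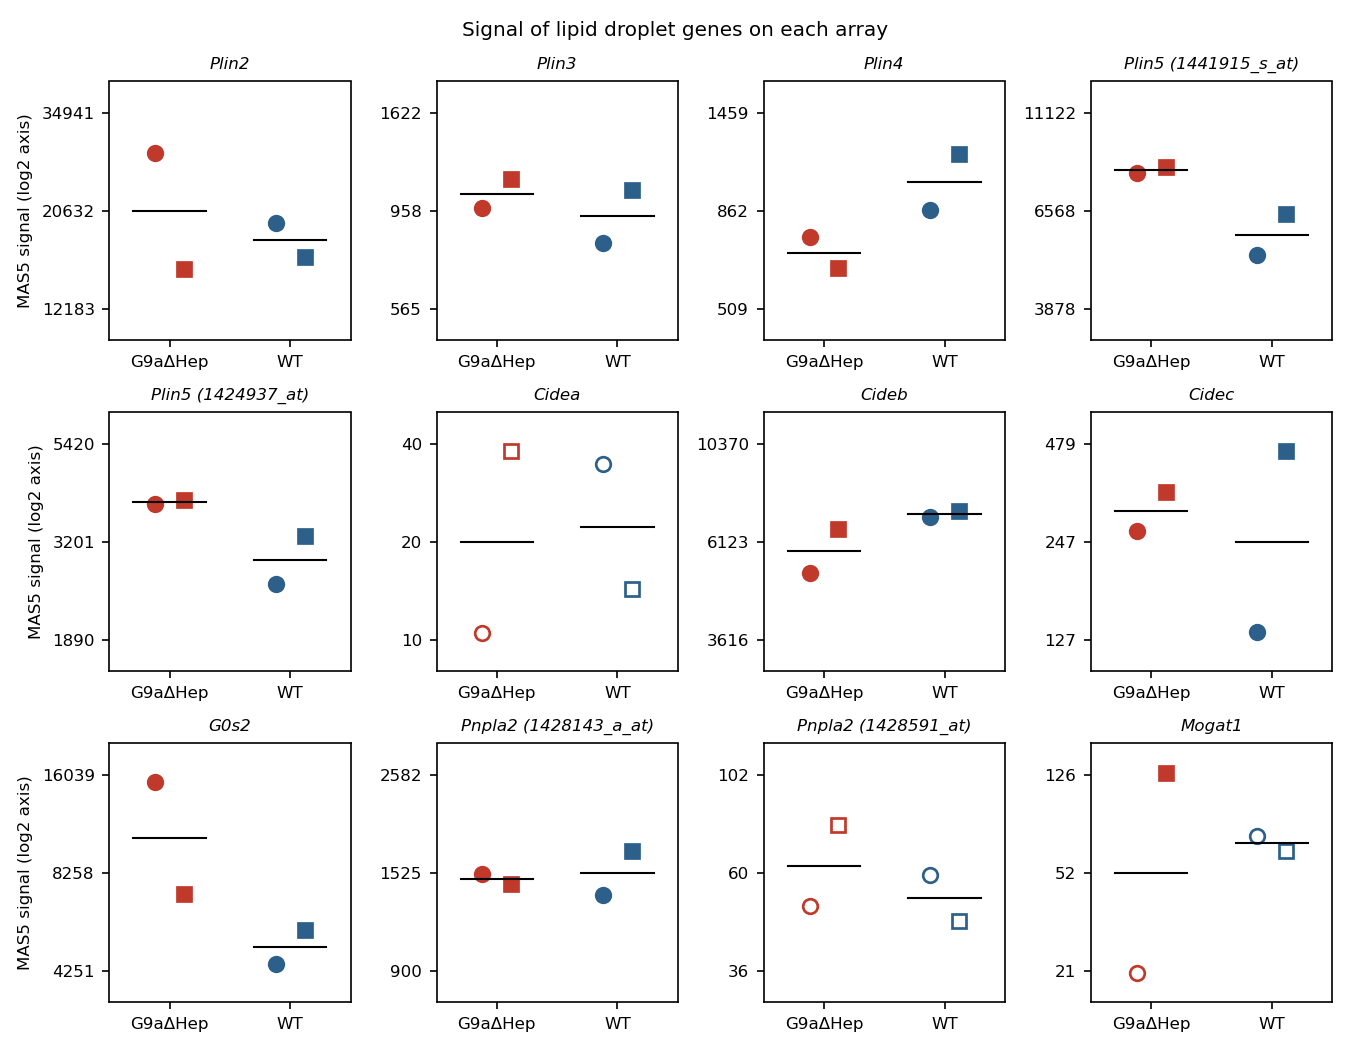
MAS5 signal (log2 axis, arbitrary units) of each lipid droplet gene in the 2 G9aΔHep mice (red) and the 2 WT mice (blue), with 1 panel per probe set, a circle for mouse 1, a square for mouse 2, open marks for a call that was not Present, and a line at the mean of the log2 signals. The axes differ between panels; the G9aΔHep marks lie above the WT marks for G0s2 and both probe sets of Plin5, and below them for Plin4 and Cideb.

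The promoter windows of the 3 genes with the smallest unadjusted p are shown first, so that their sequences can be set beside the values. They are RefSeq windows of build GRCm38.p6, from 250 bases before to 50 bases after a transcription start, on the minus strand at chr17:56117499-56117798 (*Plin5*, the upstream one of its starts), chr17:56109733-56110032 (*Plin4*) and chr1:193273139-193273438 (*G0s2*). Capitals mark matches, on either strand, to the nuclear receptor motif AGGTCA or to the GC box GGGCGG.
Plin5: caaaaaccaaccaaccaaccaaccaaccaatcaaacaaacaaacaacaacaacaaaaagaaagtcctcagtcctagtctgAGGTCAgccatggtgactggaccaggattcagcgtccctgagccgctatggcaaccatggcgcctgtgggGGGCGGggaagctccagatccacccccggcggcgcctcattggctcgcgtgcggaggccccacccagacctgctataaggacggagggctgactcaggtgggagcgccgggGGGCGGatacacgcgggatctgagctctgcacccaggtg
Plin4: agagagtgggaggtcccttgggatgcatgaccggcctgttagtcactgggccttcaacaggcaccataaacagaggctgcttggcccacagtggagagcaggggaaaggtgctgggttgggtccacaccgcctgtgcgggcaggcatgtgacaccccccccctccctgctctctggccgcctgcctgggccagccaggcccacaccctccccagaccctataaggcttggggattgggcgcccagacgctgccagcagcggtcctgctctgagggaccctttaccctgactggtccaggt
G0s2: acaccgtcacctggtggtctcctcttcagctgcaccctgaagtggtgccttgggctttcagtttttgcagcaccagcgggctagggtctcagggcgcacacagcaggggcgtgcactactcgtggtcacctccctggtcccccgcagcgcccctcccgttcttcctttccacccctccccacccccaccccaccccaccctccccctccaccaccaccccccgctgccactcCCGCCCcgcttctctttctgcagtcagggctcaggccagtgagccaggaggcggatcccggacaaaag

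The *Plin5* window held AGGTCA at position -170 from the start and GC boxes at -100 and 12, the *G0s2* window held a GC box at -18, and the *Plin4* window held no match. AGGTCA was found in 16.3% and the GC box in 35.7% of 32851 promoter windows of the same length. DR1, the paired form to which PPAR dimers bind, was searched only as the exact letters AGGTCANAGGTCA, which overlap AGGTCA. These occurred in 0.0396% of all windows and in 0 of the 11 windows of the listed genes. A match this rare would hardly fall in 11 windows in any case. Looser or more distant copies were not searched, so the result does not show that the genes lack PPAR sites. The table held 9 of the 10 genes, with several starts for some, and 7 of their 11 windows had a GC box. Outside the windows printed here, AGGTCA also stood in the other *Plin5* window and at -218 in *Plin2*, which had the only E-box (CACGTG, at -4, in 7.15% of all windows). The only exact match to the TATA box letters TATAAA was in *Cideb* (at -172, in 13.6% of all windows). The near match TATAAG in the printed *Plin5* and *Plin4* windows was not counted. The sterol element TCACNCCAC, found in 1.24% of all windows, was in 0 of the 11. A match describes the letters of the window and does not show that a factor binds there.

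Of the coat genes, *Plin5* had the smallest unadjusted p of all the listed genes. Plin5 holds droplets close to mitochondria and is abundant in tissues that burn fatty acids. Its brighter probe set gave 8040 and 8321 in the G9aΔHep mice, against 5184 and 6447 in the WT mice, so that both G9aΔHep livers were above both WT livers and almost alike. The mean was 8180 ± 199 in G9aΔHep liver and 5815 ± 893 in WT liver (SD, n = 2 each), a 1.41-fold difference or 0.50 ± 0.14 on the log2 scale (SE, 95% confidence interval 0.16 to 0.84). The limma p was 0.0107 before adjustment and 0.319 after, and *Plin5* ranked 349 of 10350 genes by p and 1072 by the size of the signed difference. The other *Plin5* probe set gave 3925 and 3999 in the G9aΔHep mice, against 2561 and 3300 in the WT mice, again without overlap. Its difference was 0.45 on the log2 scale, with an adjusted p of 0.461 in the limma fit over all probe sets. The difference stayed between 0.34 and 0.66 when each array was left out in turn.

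*Plin4*, which codes for a coat protein of small, newly formed droplets and is best known from adipocytes, went the other way. Its signal was 748 and 634 in the G9aΔHep mice, against 866 and 1171 in the WT mice, with both G9aΔHep livers below both WT livers. The difference was -0.55 ± 0.21 on the log2 scale (SE, 95% interval -1.05 to -0.045), which is 0.684-fold, with a limma p of 0.0374 before and 0.471 after adjustment. Without any 1 array it lay between -0.77 and -0.33. *Plin4* and *Plin5* are neighbours on chromosome 17, with 1648 bases between the end of one gene and the start of the other, and *Plin3* lies 161355 bases from *Plin5* on the same chromosome. *Ehmt2*, the floxed gene, is also on chromosome 17, 21.2 Mb from *Plin4*. The alleles that the 2 genotypes carry around the floxed gene were not analysed here.

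*Plin2* codes for the main droplet coat of hepatocytes, whose protein is stable only while bound to lipid. Its signal was 28147 and 15124 in the G9aΔHep mice, against 19301 and 16163 in the WT mice, so that the G9aΔHep mice held both the highest and the lowest value. They differed 1.86-fold from each other, and the WT mice 1.19-fold. The difference of 0.22 ± 0.28 on the log2 scale had a 95% interval of -0.47 to 0.92 and an adjusted p of 0.832 in limma. It was -0.22 without G9aΔHep mouse 1 and 0.67 without G9aΔHep mouse 2. *Plin3*, whose protein moves between the cytosol and nascent droplets, gave 974 and 1135 in the G9aΔHep mice and 808 and 1072 in the WT mice. The groups overlapped, and the difference was 0.18 ± 0.20 (SE) with a 95% interval of -0.30 to 0.65 and an adjusted p of 0.802 in limma.

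Among the fusion genes only *Cideb* had groups that did not overlap. Cideb is the CIDE protein of normal hepatocytes and takes part in the loading of very-low-density lipoprotein with lipid. Its signal was 5184 and 6565 in the G9aΔHep mice, against 7010 and 7233 in the WT mice, with both G9aΔHep livers lower. The difference was -0.29 ± 0.14 on the log2 scale (SE, 95% interval -0.64 to 0.062), or 0.819-fold, with a limma p of 0.0909 before and 0.563 after adjustment. Without G9aΔHep mouse 1 it was -0.12, and without G9aΔHep mouse 2 it was -0.46. *Cidec*, the fusion protein that marks fatty liver, gave 266 and 346 in the G9aΔHep mice and 134 and 454 in the WT mice. Both G9aΔHep values lay inside the range of the WT mice, which were 3.38-fold apart, and the 95% interval of the difference, -1.07 to 1.66 around 0.30, holds large differences in either direction. The probe set of *Cidea*, which is at home in brown fat, was Absent on all 4 arrays, at 10.9 and 38.3 in the G9aΔHep mice and 34.9 and 14.8 in the WT mice. These lie within the signals of undetected probe sets, of which 95% were below 170 to 181 on each array, so no difference was assigned.

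*G0s2*, the inhibitor of adipose triglyceride lipase, had the largest difference of the 8 tested genes in size. Its signal was 15215 and 7172 in the G9aΔHep mice, against 4482 and 5601 in the WT mice, with both G9aΔHep livers above both WT livers. The mean was 11193 ± 5687 in G9aΔHep liver and 5041 ± 792 in WT liver (SD, n = 2 each), and the G9aΔHep mice differed 2.12-fold from each other. The difference was 1.06 ± 0.34 on the log2 scale (SE, 95% interval 0.22 to 1.90), or 2.09-fold, with a limma p of 0.0210 before and 0.398 after adjustment, which ranked it 266 of 10350 genes by the signed difference and 544 by p. The higher value was that of G9aΔHep mouse 1. Without that mouse the difference was 0.52, and without G9aΔHep mouse 2 it was 1.60 with an adjusted p of 0.0220, the only fit in which a listed gene passed the threshold.

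The target of that inhibitor, *Pnpla2*, had overlapping groups at the probe set that detected it. It gave 1517 and 1437 in the G9aΔHep mice and 1353 and 1719 in the WT mice, with the G9aΔHep values inside the WT range. The difference was -0.047 ± 0.17 on the log2 scale (SE), with a 95% interval of -0.45 to 0.36. The adjusted p was 0.945 in limma. The other *Pnpla2* probe set was Absent throughout, at 50.6 and 77.9 in the G9aΔHep mice and 59.7 and 46.7 in the WT mice. *Mogat1*, which makes diacylglycerol from monoacylglycerol and is low in normal liver, was Present on 1 array only, with 20.8 (Absent) and 128 (Present) in the G9aΔHep mice and 72.4 and 63.2 (both Absent) in the WT mice. It was not tested, and the G9aΔHep mice alone were 6.16-fold apart.

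**Figure D2:**
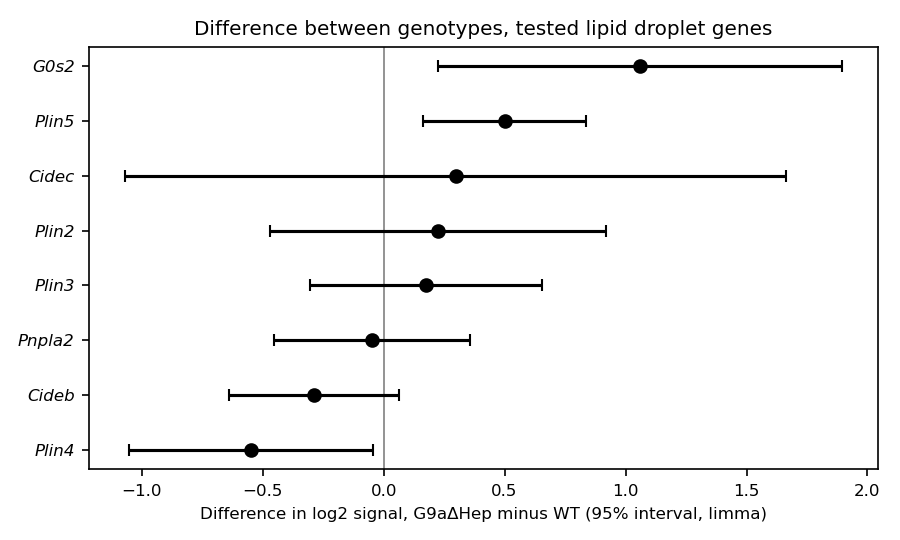
Difference in log2 signal (G9aΔHep minus WT, x axis) with its 95% confidence interval from limma for the 8 tested lipid droplet genes, ordered by size, with 2 arrays per genotype. The intervals of G0s2 (0.22 to 1.90), Plin5 (0.16 to 0.84) and Plin4 (-1.05 to -0.045) leave out 0 before adjustment, and Cidec has the widest.

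The order of the differences, G0s2, Plin5, Cidec, Plin2, Plin3, Pnpla2, Cideb and Plin4 from high to low, is mostly not resolved, since each interval overlaps that of its neighbour. Sign was kept in all 4 fits with 1 array left out for *G0s2*, *Plin5*, *Plin4* and *Cideb*, and turned in 1 of the 4 for *Plin2* (-0.22 without G9aΔHep mouse 1), *Plin3* (-0.029 without WT mouse 1), *Cidec* (-0.58 without WT mouse 1) and *Pnpla2* (0.13 without WT mouse 2). Over all tested genes the median fold between mice of 1 genotype was 1.16 in each, and 90% of genes lay below 1.65 in G9aΔHep liver and 1.62 in WT liver. *G0s2* (2.12-fold) and *Plin2* (1.86-fold) were beyond that in the G9aΔHep mice and *Cidec* (3.38-fold) in the WT mice.

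**Figure D3:**
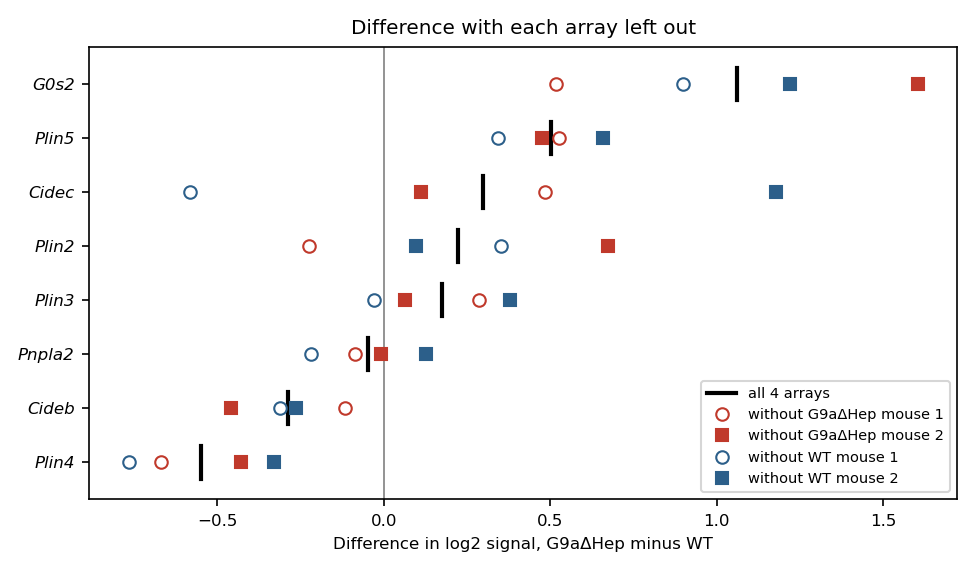
Difference in log2 signal (G9aΔHep minus WT, x axis) of the 8 tested lipid droplet genes with all 4 arrays (black bar) and with each array left out (red for G9aΔHep mice, blue for WT mice; open circles for mouse 1, filled squares for mouse 2). G0s2 ranges from 0.52 to 1.60 and Cidec from -0.58 to 1.18, while Plin5 stays between 0.34 and 0.66.

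Some marker lists of other liver cells leaned towards G9aΔHep liver in the same mice, and others did not. All 14 macrophage markers tested were above 0 in the difference, with a median of 0.53 on the log2 scale, beside 5528 of all 10350 genes above 0. Both G9aΔHep values lay above both WT values for 6 of the 14 and below both for 0, against 22.3% and 19.3% of all genes. The 16 macrophage markers on the array summed to 65223 and 42191 in the G9aΔHep mice, against 29612 and 44091 in the WT mice. All 11 stellate cell markers tested were above 0 as well, with a median of 0.52. Of these 11, 7 lay above and 0 below without overlap, against 22.3% and 19.3% of all genes. The 14 stellate cell markers on the array summed to 17074 and 10276 in the G9aΔHep mice, against 10201 and 11231 in the WT mice. G9aΔHep mouse 1, with the highest *G0s2* and *Plin2*, thus had the highest sum in both lists, and the medians were 0.23 (macrophage) and 0.16 (stellate) without it. WT mouse 1 had the lowest macrophage sum, and without it the macrophage median was 0.15. The 3 cholangiocyte markers tested, of 9 on the array, were all above 0 with a median of 0.90, which lay between 0.58 and 1.23 with 1 array left out, and their list summed to 1779 and 1278 in the G9aΔHep mice, against 791 and 679 in the WT mice. *Pkhd1*, a cilium protein of bile duct cells, differed by 1.96 (adjusted p = 0.163 in limma). Other lists did not lean this way. Of 9 sinusoidal endothelial markers tested, 5 were above and 4 below 0, with a median of 0.051. All 4 lymphocyte markers tested and the 1 erythroid marker tested were below 0, with medians of -0.21 and -0.28. Each of these medians changed sign in some fit with 1 array left out. None of these markers passed an adjusted p of 0.05 in limma. By unadjusted p under 0.05, 1 macrophage, 1 stellate cell and 2 cholangiocyte markers were higher, against 5.92% of all genes. In the other direction, 1 sinusoidal endothelial marker was lower, against 4.10%. The part of these markers in the *G0s2* and *Plin2* values was not tested. Of 11 adipocyte markers on the array, 8 were Absent on all 4 arrays, among them *Adipoq* and *Lep*. The summed signal of the list was 31188 and 19521 in the G9aΔHep mice and 25385 and 28377 in the WT mice, but nearly all of it was *Car3*, which hepatocytes also express, at 29567 and 17956 in the G9aΔHep mice and 23751 and 26118 in the WT mice.

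The droplet genes outside the list gave no called gene either. Of 18 other droplet proteins tested, 0 were called. At an unadjusted p under 0.05, 1 was higher and 1 lower, against 5.92% and 4.10% of all genes. The list median was 0.069, or -0.030 without WT mouse 2. *Pcyt1a*, the rate-limiting enzyme of phosphatidylcholine synthesis, which coats growing droplets, gave 1124 and 1095 in the G9aΔHep mice, against 1630 and 1769 in the WT mice, a difference of -0.61 (adjusted p = 0.225 in limma). *Fitm1*, which helps droplets bud from the endoplasmic reticulum, gave 716 and 917 in the G9aΔHep mice, against 512 and 384 (Absent) in the WT mice, a difference of 0.87 (adjusted p = 0.290 in limma). Neither pair of groups overlapped. Of the 18 genes, 5 lay above and 4 below without overlap, beside 22.3% and 19.3% of all genes. *Hsd17b13*, a liver droplet enzyme, differed by 0.26 and *Hilpda*, another inhibitor of adipose triglyceride lipase, by 0.13, with neither called. *Plin1*, the adipocyte coat, was not analysed here.

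Of 14 triglyceride synthesis genes tested, with a median of 0.18 that was 0.047 without WT mouse 1, 0 were called. There were 2 with an unadjusted p under 0.05, both higher, against 5.92% of all genes. These were *Acsl5*, which activates long-chain fatty acids, at 10707 and 8974 in the G9aΔHep mice against 6839 and 7140 in the WT mice, and *Lclat1*, an acyltransferase, with a difference of 0.49. The enzymes that make triglyceride itself differed by -0.056 (*Dgat1*) and 0.17 (*Dgat2*) on the log2 scale. Another *Dgat2* probe set, Present on all 4 arrays, gave -0.084. Of 15 other lipolysis and lipase genes, 0 were called and 3 had an unadjusted p under 0.05, all higher, against 5.92% of all genes. The list median was 0.079, or -0.028 without WT mouse 1. *Ces1g*, a carboxylesterase of the endoplasmic reticulum, had the smallest p of them, with 10244 and 7221 in the G9aΔHep mice against 4460 and 3222 in the WT mice, a difference of 1.18 (adjusted p = 0.157 in limma). *Abhd5*, the activator of adipose triglyceride lipase, differed by -0.23 (adjusted p = 0.708 in limma), and by -0.066 at another probe set Present on all 4 arrays. *Lipe* and *Pnpla3* were Absent on all 4 arrays. Beside *G0s2* at 1.06 and *Pnpla2* at -0.047, the lipase, its activator and its inhibitor thus gave differences of different sign and size, of which none was called.

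Among PPAR target genes, 0 of 21 were called. At an unadjusted p under 0.05, 4 were higher and 1 lower, against 5.92% and 4.10% of all genes. The median was 0.17, or 0.075 without WT mouse 1. *Cyp4a31*, a fatty acid hydroxylase, differed by 2.24 (adjusted p = 0.120 in limma) and *Acot2*, a mitochondrial acyl-CoA thioesterase, by 1.11 (adjusted p = 0.140 in limma), and the G9aΔHep livers were above the WT livers in 11 of the 21 genes and below them in 2, beside 22.3% and 19.3% of all genes. *Cd36*, a fatty acid transporter that is a target of PPARγ, gave 1810 and 1751 in the G9aΔHep mice, against 2422 and 3290 in the WT mice, a difference of -0.67 (adjusted p = 0.300 in limma). The probe sets of the receptor *Ppara* disagreed, all 3 being Present on every array. The brightest differed by -0.040, another by 0.14, and the third by 0.53, at 2813 and 3521 in the G9aΔHep mice against 2021 and 2341 in the WT mice without overlap. *Pparg*, the receptor that drives several droplet coat genes in fatty liver, was Absent in both G9aΔHep mice, at 103 and 18.5, and gave 309 (Present) and 260 (Absent) in the WT mice. It was detected on 1 array, so it was outside the test of all genes, and without a detection filter its p was 0.0149 before and 0.495 after adjustment in limma. Of 16 genes of lipid uptake, binding and lipoprotein assembly and 17 transcription factors of lipid metabolism, 0 were called. By unadjusted p under 0.05 there were 0 higher and 1 lower in each list (*Cd36* and *Nr0b2*), against 5.92% and 4.10% of all genes. The list medians of -0.032 and -0.040 were 0.042 and 0.018 without G9aΔHep mouse 1. *Fabp4*, a fatty acid carrier of macrophages and adipocytes, differed by -0.38 at its brightest probe set. Another, Present on all 4 arrays, gave -0.64, at 490 and 531 in the G9aΔHep mice against 683 and 929 in the WT mice. Its remaining probe sets were Absent on all 4 arrays. Of 16 genes of the fasting and feeding response 0 were called, and 1 was higher at an unadjusted p under 0.05, against 5.92% of all genes. This was *Me1*, which supplies NADPH for fatty acid synthesis. The list median of 0.091 was 0.013 without G9aΔHep mouse 2.

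**Figure D4:**
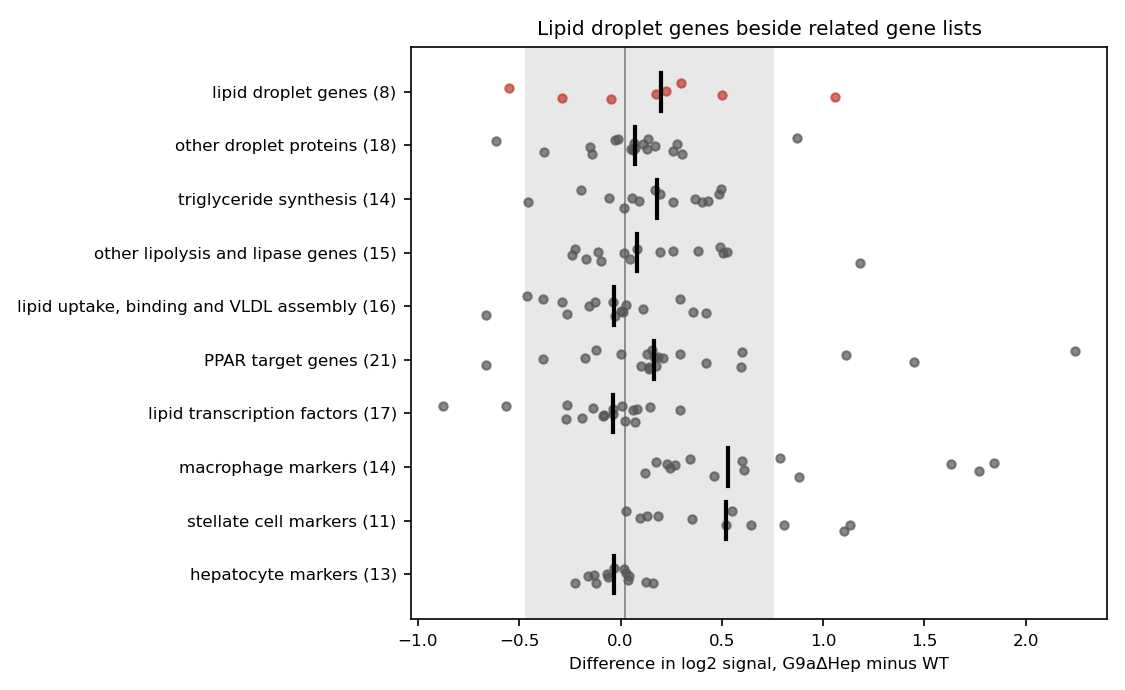
Difference in log2 signal (G9aΔHep minus WT, x axis) of the lipid droplet genes (red) and of the tested genes of related lists and cell type marker lists (grey), with the number tested in parentheses, 1 point per gene, a black bar at each list's median, a grey line at the median of all 10350 genes (0.023) and shading from their 5% to their 95% quantile (-0.47 to 0.75). Of the listed genes, G0s2 lies above the shading and Plin4 below it, and the macrophage and stellate cell markers all lie above 0.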

How the data were processed

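RNA of 2 G9aΔHep and 2 WT livers was measured on 1 array per mouse, with groups taken from the submitters' genotype labels. The authors deposited MAS5 signals, an intensity on a linear scale with each array's trimmed mean at 500, with a detection p-value and a Present, Marginal or Absent call per probe set. The version of MAS5 was not given in the sources used here. A series matrix, also deposited, held the same signal intensities within 0.0005%. Of 45101 probe sets, 64 controls were left out and 34945 named 1 gene. Each gene was read at its brightest probe set among those Present on at least 2 arrays, which left 10350 genes. Log2 signals were fitted with limma 3.58.1 in R 4.3.3 (lmFit, then eBayes with the prior variance following mean signal), with Benjamini-Hochberg adjustment over all genes and a threshold of 0.05, and the fit was tested on simulated data. For the fold of a gene Absent throughout 1 group, its signals there were raised to at least the lowest Present signal of their array. This left the *Ehmt2* signals unchanged. All 10 listed genes were named at every probe set, other lists by up to 4 genes of smallest p and a few genes by role. The listed genes and all lists were chosen with earlier results of these data known. Alternatives were other scalings, detection filters, a pseudocount of 16, another variance model, the methods' t-test, the series matrix, other probe sets and leaving out each array. Promoter windows came from RefSeq (GRCm38.p6).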

Additional observations from a re-analysis of the deposited data

How the results depend on the processing

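No listed gene passed the threshold under any scaling, filter, pseudocount, variance model or test tried, and with 1 array left out 0 to 1 gene and 0 to 1 probe set were called: *G0s2*, at 1.60 on the log2 scale without G9aΔHep mouse 2. With 1 array left out the difference ran between -0.22 (without G9aΔHep mouse 1) and 0.67 for *Plin2*, between -0.029 (without WT mouse 1) and 0.38 for *Plin3*, between -0.58 (without WT mouse 1) and 1.18 for *Cidec*, and between -0.22 and 0.13 (without WT mouse 2) for *Pnpla2*, whose other, Absent probe set gave 0.25. The median of the listed genes lay between -0.12 and 0.25 with 1 array left out. Over all genes, 33 were called higher and 7 lower, against 11 and 4 without a detection filter, 19 higher when Present on all 4 arrays was required, and 8 to 54 higher and 0 to 17 lower with 1 array left out. Without a mean-variance trend limma called 0 and 0, with 645 higher and 318 lower by unadjusted p under 0.05, and the methods' t-test called 0 and 0, with 449 and 406. The cause was not tested. Leaving out 1 array leaves 1 mouse in a group, which is then assumed to vary like the others. *Cidea* and *Mogat1* could be fitted only without a detection filter. No paired analysis was possible because the labels give no replicate numbers that the genotypes share.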

Other observations

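Among the genes of triglyceride synthesis, of the response to fasting and of the PPAR targets, chosen here after their values were seen, some differed more between mice of 1 genotype than between genotypes. *Lpin1*, a phosphatidate phosphatase, gave 8343 and 19631 in the G9aΔHep mice and 6090 and 16120 in the WT mice, and *Vnn1*, a PPARα target, gave 7448 and 15831 in the G9aΔHep mice and 7001 and 14604 in the WT mice. *Pdk4*, a kinase that blocks pyruvate oxidation in fasting, gave 3935 and 725 in the G9aΔHep mice and 779 and 492 in the WT mice, with the high value in G9aΔHep mouse 1, which also had the highest *G0s2* and *Plin2*. *Fasn*, fatty acid synthase, gave 738 and 992 in the G9aΔHep mice and 742 and 477 in the WT mice. None of the 4 passed an adjusted p of 0.05 in limma.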
